A study of Mus musculus with 5 samples.

Results

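The cells described here are stromal cells of KPPCN pancreatic tumours that carried transcripts of Enpp2, Cxcl13 or Saa3 at a high level. A cell was taken when it had at least 500 detected genes and when Enpp2, Cxcl13 and Saa3 together made up 20 or more of every 10000 unique molecular identifiers (UMIs, which count captured transcripts). It also needed Dcn at 2 or more per 10000, no UMI of the leukocyte gene Ptprc, under 3 per 10000 of the mesothelial genes Upk3b, Lrrn4, Upk1b and Nkain4 together, and Epcam under 2 per 10000. Of 17771 cell barcodes in the series, 451 (2.54%) met these conditions, 373 from library KPPCN 1 and 78 from KPPCN 2. Library KPPCN 1 therefore gave 82.7% of the cells, and all values below are given per library. Because the cells were chosen by these measured values, what the gate selected is described without a test.

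The tumours were pancreatic adenocarcinomas of mice aged 7 to 8 weeks. KPPCN and KPPC are names of mouse lines: both lack Trp53 in the pancreatic lineage, and KPPCN mice also lack Nsdhl, which encodes a sterol dehydrogenase of cholesterol synthesis; the sources used here give neither the alleles nor the Cre driver. The labels speak of 3 mice of each genotype, and 2 KPPCN and 3 KPPC libraries were analysed here. Tumours were dissociated, dead cells and CD45-positive (haematopoietic) cells were depleted with beads in both genotypes, and 10x 3′ libraries were made.

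Enpp2 encodes autotaxin, the secreted enzyme that makes lysophosphatidic acid, and Cxcl13 encodes a chemokine that attracts B cells through the receptor CXCR5. Saa3 encodes an acute-phase serum amyloid A protein made by inflamed fibroblasts, adipocytes and macrophages of the mouse. Wt1 is a transcription factor of the embryonic body-cavity lining, which persists in mesothelium and in some fibroblasts beneath it. Fibroblasts of pancreatic tumours are commonly described as matrix-producing myofibroblasts, inflammatory fibroblasts that secrete cytokines, and antigen-presenting fibroblasts that carry MHC class II.

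Proximal promoters are shown for 4 genes that were high in the gated cells, Saa3 and Cxcl13 of the gate and Slpi and Lcn2 outside it, because a motif of the C/EBP factors, which act at acute-phase genes, was found in each. The sequences run from 250 bases before to 50 bases after the start site on the gene's strand (RefSeq, GRCm38.p6), with the motif in capitals. They lie at chr7:46715627-46715926 (minus strand) for Saa3, chr5:95956689-95956988 (plus) for Cxcl13, chr2:164356458-164356757 (minus) for Slpi and chr2:32387690-32387989 (minus) for Lcn2.
Saa3: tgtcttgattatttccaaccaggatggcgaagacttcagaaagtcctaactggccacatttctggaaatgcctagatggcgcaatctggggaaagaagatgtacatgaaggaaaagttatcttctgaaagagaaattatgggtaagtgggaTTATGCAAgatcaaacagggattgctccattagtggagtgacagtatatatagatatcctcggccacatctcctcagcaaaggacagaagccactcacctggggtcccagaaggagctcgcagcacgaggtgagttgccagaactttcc
Cxcl13: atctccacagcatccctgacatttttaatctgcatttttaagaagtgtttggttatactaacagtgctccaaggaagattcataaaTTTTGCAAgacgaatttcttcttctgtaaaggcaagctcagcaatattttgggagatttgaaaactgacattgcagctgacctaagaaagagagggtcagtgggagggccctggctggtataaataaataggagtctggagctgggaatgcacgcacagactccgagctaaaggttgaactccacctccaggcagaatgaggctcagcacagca
Slpi: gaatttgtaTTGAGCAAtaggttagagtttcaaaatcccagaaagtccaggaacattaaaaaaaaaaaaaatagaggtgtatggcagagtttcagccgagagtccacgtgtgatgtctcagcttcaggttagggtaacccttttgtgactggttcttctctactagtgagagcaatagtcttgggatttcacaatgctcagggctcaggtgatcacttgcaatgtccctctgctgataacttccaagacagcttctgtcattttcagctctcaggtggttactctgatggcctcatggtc
Lcn2: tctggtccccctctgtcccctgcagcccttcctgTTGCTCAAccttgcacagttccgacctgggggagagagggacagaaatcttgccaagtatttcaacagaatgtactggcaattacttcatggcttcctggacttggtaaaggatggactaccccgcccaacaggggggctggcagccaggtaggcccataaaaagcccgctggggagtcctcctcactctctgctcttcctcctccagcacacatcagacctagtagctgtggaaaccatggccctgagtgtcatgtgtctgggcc
The motif TTGCNNAA, searched on both strands, was present once in each of these 4 promoters and in neither Chl1 nor Col6a5, the other marker genes with an entry. It was found in 3547 of 32851 mouse promoters of the same length (10.8%). The NF-kB motif GGANTTTCC, searched the same way, was found in 412 of them (1.25%) and in none of these 6, so no matches overlapped. The 4 promoters were chosen for holding the C/EBP motif, so the share over all promoters is no test of them. Promoters of the other high genes named below are not given here. The NF-kB motif is so rare that its absence from 6 promoters tells nothing. A match is a run of letters and not a measured binding site.

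Values of the gate genes and of the other markers are given as UMIs per 1000000 of all UMIs summed over the cells of a library (CPM). The gate was also applied to the KPPC libraries, where it took 320 cells of library C3, 650 of D3 and 309 of H2. Ptprc was not among the 12579 genes of the KPPC table, so that condition could be applied in KPPCN alone, where it removed 81 cells, all from KPPCN 1. Cells that met every condition except the sum of 20 are called other Dcn stroma, and numbered 1586 and 361 in KPPCN 1 and 2, and 1671, 627 and 746 in KPPC libraries C3, D3 and H2.

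The 2 KPPCN libraries met the gate in different ways. Gated cells held Enpp2 at 1309 and 194 CPM in KPPCN 1 and 2, against 397, 306 and 449 CPM in KPPC libraries C3, D3 and H2. Cxcl13 was at 4471 and 172 CPM in KPPCN 1 and 2, against 2589, 1443 and 5170 CPM in the KPPC libraries. Saa3 was at 17575 and 8852 CPM in KPPCN 1 and 2, against 13552, 16770 and 11740 CPM. KPPCN 1 had the highest Enpp2 and KPPCN 2 the lowest value of each of the 3 genes. In other Dcn stroma, Enpp2 stayed at 18.9 to 42.0 CPM, Cxcl13 at 9.32 to 53.5 CPM and Saa3 at 117 to 369 CPM over the 5 libraries, as the gate requires.

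Cells of KPPCN 1 often held several of the 3 genes, whereas cells of KPPCN 2 passed mainly through Saa3. In KPPCN 1, 194 of 373 cells (52.0%) had 2 or 3 of the genes at 20 or more per 10000 and 150 (40.2%) had Saa3 alone. In KPPCN 2, 4 of 78 cells (5.13%) had 2 or 3 of them and 68 (87.2%) had Saa3 alone. Cells with 2 or 3 of the genes made up 22.8%, 19.7% and 30.7% of the gated cells in KPPC libraries C3, D3 and H2, which lay between the KPPCN libraries. Cxcl13 alone took 4 and 2 cells, and Enpp2 alone 8 and 3 cells, in KPPCN 1 and 2.

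**Figure D1:**
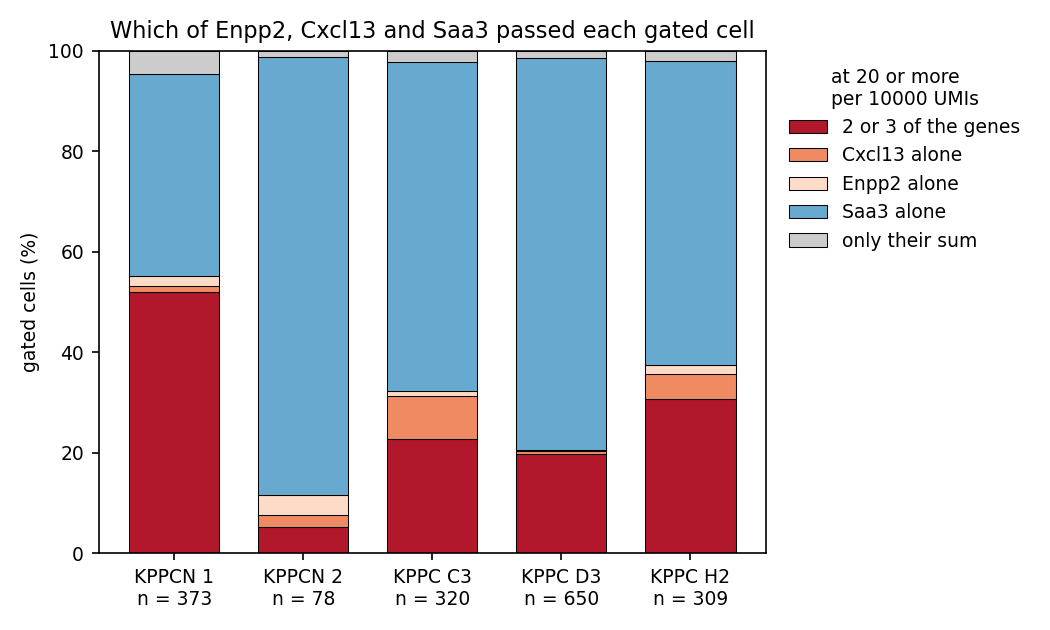
Share of gated cells (%) by which of Enpp2, Cxcl13 and Saa3 reached 20 per 10000 UMIs, for each library, with the number of gated cells under each bar. Saa3 alone accounts for 87.2% of cells in KPPCN 2 and 40.2% in KPPCN 1, with the KPPC libraries between 60.5 and 78.0%.

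Within KPPCN 1, cells with 2 or 3 of the gate genes differed from cells with Saa3 alone in genes outside the gate. Col6a5, a collagen VI chain, was at 416 CPM in cells with 2 or 3 of the genes and 115 CPM in cells with Saa3 alone, and Wt1 at 486 and 293 CPM. Col1a1, the main chain of fibrillar collagen I, was at 1691 CPM in cells with 2 or 3 of the genes and 8686 CPM in cells with Saa3 alone. The same order held in each KPPC library. Col6a5 was at 130, 75.4 and 228 CPM in C3, D3 and H2 in cells with 2 or 3 of the genes, against 47.9, 20.3 and 18.4 CPM with Saa3 alone. Col1a1 there was at 1489, 1581 and 1198 CPM in C3, D3 and H2 in cells with 2 or 3 of the genes, against 4985, 3081 and 5893 CPM with Saa3 alone. These are pooled values of cells within a library and were not tested. The 4 such cells of KPPCN 2 were too few to give levels.

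The marker genes that the gate did not use were higher in gated cells than in other stroma of KPPCN 1, and in part in KPPCN 2. Wt1 was at 420 and 181 CPM in gated cells of KPPCN 1 and 2, against 161 and 138 CPM in their other Dcn stroma. Chl1, a neural adhesion molecule, was at 361 and 310 CPM in gated cells, against 113 and 203 CPM. Col6a5 was at 276 CPM in gated cells of KPPCN 1 and 5.52 CPM in those of KPPCN 2, against 27.0 and 10.3 CPM in other Dcn stroma. Col6a5 was thus higher in gated cells of KPPCN 1 and lower in those of KPPCN 2, so the name Enpp2 Cxcl13 Wt1 stroma holds for KPPCN 1, and the cells of KPPCN 2 are better called Saa3-high stroma. In GRCm38 the marker genes lie on separate chromosomes. Enpp2 is on 15 (54838901 to 54952892, minus strand), Wt1 on 2 (105126529 to 105173616, plus) and Chl1 on 6 (103510586 to 103750211, plus). Col6a5 is on 9 (105856078 to 105960643, minus), and Cxcl13 and Saa3 are on 5 and 7.

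Enpp2, Cxcl13, Saa3 and Wt1 were also high in mesothelial cells, taken as cells with 3 or more per 10000 of the 4 mesothelial genes. The conditions on detected genes, Ptprc and Epcam were kept for them, and those on Dcn and on the sum of Enpp2, Cxcl13 and Saa3 were left out. Enpp2 was at 1309 and 194 CPM in gated cells of KPPCN 1 and 2, against 1259 and 290 CPM in mesothelial cells, and Wt1 at 420 and 181 CPM against 428 and 221 CPM. Saa3 was at 17575 and 8852 CPM in gated cells, against 11121 and 7256 CPM in mesothelial cells. A separation was seen in some genes that the gate did not use. Msln, a mesothelial surface protein, was at 16.7 and 18.2 CPM in gated cells, against 373 and 481 CPM in mesothelial cells. Pdgfra, a fibroblast receptor, was at 306 and 192 CPM in gated cells of KPPCN 1 and 2, against 183 and 82.0 CPM in mesothelial cells and 107 and 148 CPM in other Dcn stroma. The limit on mesothelial genes alone kept out 166 cells of KPPCN 1 and 28 of KPPCN 2.

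**Figure D2:**
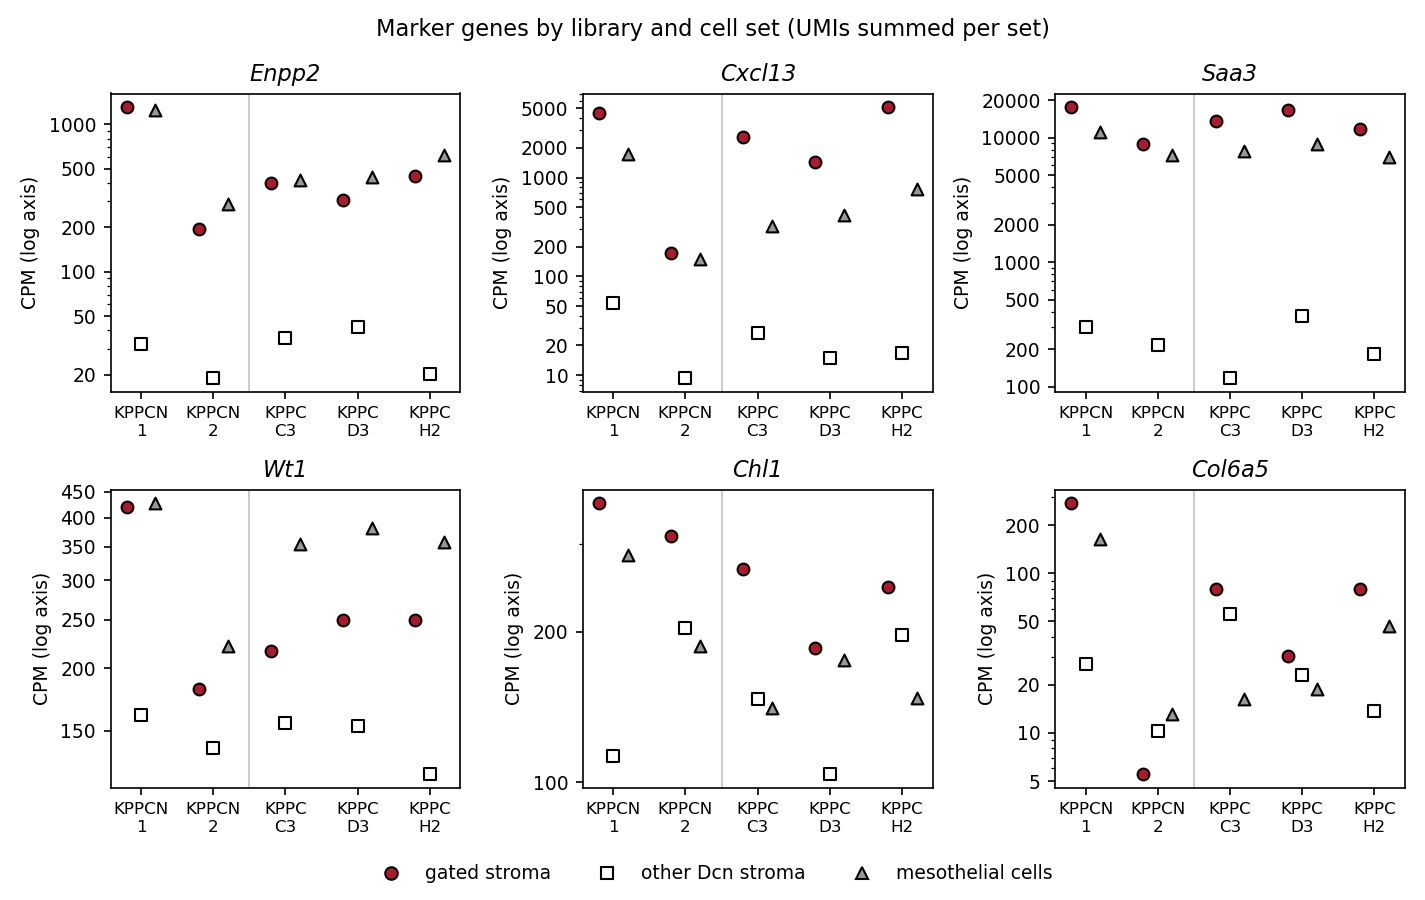
Level (CPM, log axis) of Enpp2, Cxcl13, Saa3, Wt1, Chl1 and Col6a5 in gated stroma, other Dcn stroma and mesothelial cells of each library, with 1 point for the summed UMIs of a set. Enpp2, Cxcl13 and Saa3 separate gated from other stroma by the rule, Wt1 and Chl1 lie higher in gated than in other stroma in all 5 libraries, and Col6a5 of KPPCN 2 (5.52 CPM) is the only gated value below its other stroma.

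Cells just inside and just outside the threshold differed in some markers outside the gate. The 29 cells of KPPCN 1 with a gate sum of 20 to 25 per 10000 had Saa3 at 1950 CPM, Wt1 at 451 CPM and Col1a1 at 9117 CPM, and the 56 cells just outside, at 15 to 20, had 1301, 366 and 7698 CPM of these genes. Col6a5 was at 268 CPM in the cells inside and 21.9 CPM in those outside, and Chl1 at 390 and 190 CPM. In KPPCN 2 the 8 cells just inside had Saa3 at 2255 CPM and Wt1 at 76.6 CPM, and the 15 just outside 1545 and 160 CPM, with Chl1 at 98.5 CPM inside and 464 CPM outside. The median gate sum was 146 and 51.1 per 10000 in KPPCN 1 and 2, against 119, 158 and 132 per 10000 in KPPC libraries C3, D3 and H2. Most gated cells thus lay well above the threshold, and those of KPPCN 2 were nearest to it.

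The libraries differed in ways that touch these values. Gated cells had a median of 4209 UMIs in KPPCN 1 and 21356.5 in KPPCN 2, against 19020 to 20991 in the KPPC libraries, and their summed UMIs were 2149988 and 1813109, against 6471909 to 15113598. Immunoglobulin Igkc, a plasma cell product, had a UMI in 93.8% of gated cells in KPPCN 1 and 1.28% in KPPCN 2, and Ptprc had one in 39.5% and 0.644% of all cells of these libraries. Cells with Epcam at 2 or more per 10000, the epithelial fraction, made up 2.58% and 2.23% of KPPCN 1 and 2, against 18.1%, 30.6% and 32.1% of KPPC libraries C3, D3 and H2. Xist, which is expressed from the inactive X chromosome of females, was at 0.0364 and 0.0562 CPM in KPPCN 1 and 2, against 569 and 680 CPM in C3 and D3, and was listed at 0 in H2, where 0 can mean that the gene was filtered out of that library. No more than 6 barcodes were shared by any pair of libraries and no gated KPPCN cell shared one. Nsdhl had 24.9 and 52.4 CPM in Epcam cells of KPPCN 1 and 2, against 27.9, 22.8 and 27.1 CPM in KPPC libraries C3, D3 and H2, but no source used here names the deleted exons, and 3′ counts therefore do not check the deletion.

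Slpi, Trf and Lcn2 were at least 2-fold higher in gated cells than in other Dcn stroma of the same tumour in both KPPCN libraries, and Postn and Col14a1 at least 2-fold lower. Among 2643 genes at 50 CPM or more in KPPCN stroma, 18 (0.681%) were at least 2-fold higher in gated cells of both libraries and 42 (1.59%) at least 2-fold lower, with 5 CPM added to each level. In KPPCN 1 alone 92 genes (3.48%) were 2-fold higher and 181 (6.85%) lower, and in KPPCN 2 alone 29 (1.1%) and 63 (2.38%). Since the gate separates these cells, the counts describe the 2 KPPCN libraries and carry no test. The same contrast in the 3 KPPC libraries, which the rule did not use, was tested with limma on the difference of log2(CPM + 5) per library. There 1603 of 11248 genes (14.3%) were higher and 1791 (15.9%) lower in gated cells at a Benjamini-Hochberg adjusted p of 0.05. With scaling to total UMIs in place of trimmed means these counts were 1132 and 2531. The higher share of the calls was then 30.9% in place of 47.2%. With trimmed means and without the genes of all gate conditions, 1597 were higher and 1791 lower of 11239 genes. The same gate split the KPPC cells, so genes that vary with Enpp2, Cxcl13 or Saa3 differ by selection. Adjusted p-values within KPPC therefore tell only that a difference recurred over the 3 libraries.

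All 18 genes that were 2-fold higher in both KPPCN libraries were called higher in the KPPC libraries, against 19.7% of all genes at 50 CPM or more. Of the 42 lower genes, 40 could be tested and 37 were called lower, against 22.8% of all such genes; Ube2c, Vegfd and Sprr1a were not called. These genes were chosen in KPPCN and the KPPC cells share neither animals nor libraries with them, but both sets were selected with the same 3 genes. The counts were 17 or 18 of 18 and 35 to 38 of 40 under the other settings tried.

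Slpi, an inhibitor of leukocyte proteases, stood first by the fold in the KPPCN library where it was smaller. Its level was 1535 and 2054 CPM in gated cells of KPPCN 1 and 2, against 185 and 161 CPM in other Dcn stroma. In KPPC libraries C3, D3 and H2 it was 1727, 2753 and 2142 CPM in gated cells, against 106, 587 and 191 CPM (log2 difference 3.31 ± 0.29 SE, n = 3 libraries, limma adjusted p = 0.000933). Every gated value lay above every value of other stroma.

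Trf, which encodes the iron carrier transferrin, was at 2416 and 240 CPM in gated cells of KPPCN 1 and 2, against 144 and 83.8 CPM in other Dcn stroma, a 4.02 and 1.47 log2 difference. In KPPC libraries C3, D3 and H2 it was at 922, 924 and 1229 CPM in gated cells, against 128, 167 and 95.3 CPM (3.03 ± 0.20, adjusted p = 0.000413 by limma). Fth1, the ferritin heavy chain that stores iron, was at 19236 and 14290 CPM in gated cells of KPPCN 1 and 2, against 4923 and 5719 CPM, and differed by 1.52 ± 0.09 in KPPC. For both genes the gated and other values did not overlap, and KPPCN 2 had the lowest gated value.

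Lcn2, a lipocalin that binds bacterial siderophores, was at 738 and 442 CPM in gated cells of KPPCN 1 and 2, against 66.0 and 151 CPM. Sod2, the mitochondrial superoxide dismutase, was at 266 and 325 CPM, against 60.6 and 111 CPM. In KPPC the log2 differences were 2.29 ± 0.23 for Lcn2 and 1.64 ± 0.13 for Sod2. Both genes were higher in gated cells of all 5 libraries.

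The 15 highest genes held 3 CXC chemokines, of which Cxcl5 and Cxcl2 attract neutrophils. Cxcl5 was at 106 and 166 CPM in gated cells of KPPCN 1 and 2, against 7.25 and 57.2 CPM in other Dcn stroma, and at 142, 240 and 198 CPM in KPPC libraries C3, D3 and H2, against 21.8, 40.3 and 45.7 CPM (2.39 ± 0.10, adjusted p = 0.000156 by limma). Cxcl2 was at 375 and 496 CPM in gated cells of KPPCN 1 and 2, against 125 and 217 CPM, with a KPPC difference of 1.45 ± 0.21. Cxcl16, the ligand of CXCR6, was at 186 and 137 CPM, against 63.2 and 56.9 CPM, with 1.29 ± 0.12 in KPPC. Outside the rule for named genes, Cxcl1 did not share this pattern: it was at 463 and 603 CPM in gated cells of KPPCN 1 and 2, against 317 and 704 CPM, and its KPPC difference was -0.00 ± 0.08 (adjusted p = 0.989 by limma).

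The remaining genes of the 15 highest were Serpinb2 (plasminogen activator inhibitor 2), Cxadr (a junction protein and coxsackievirus receptor), Trem2 (a lipid receptor known from macrophages), Lgals7 (galectin 7), Slc9a3r1 (a membrane scaffold), Mtss1 (a membrane-bending protein) and the predicted gene Gm20186. Their KPPC log2 differences ran from 0.78 ± 0.12 for Mtss1 to 2.25 ± 0.41 for Serpinb2, and all passed the test. Trem2 was at 172 and 76.1 CPM in gated cells of KPPCN 1 and 2, against 19.1 and 17.6 CPM in other Dcn stroma. In KPPC libraries C3, D3 and H2 it was at 79.7, 121 and 107 CPM in gated cells, against 17.0, 93.3 and 36.3 CPM, so that D3 showed the smallest difference.

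**Figure D3:**
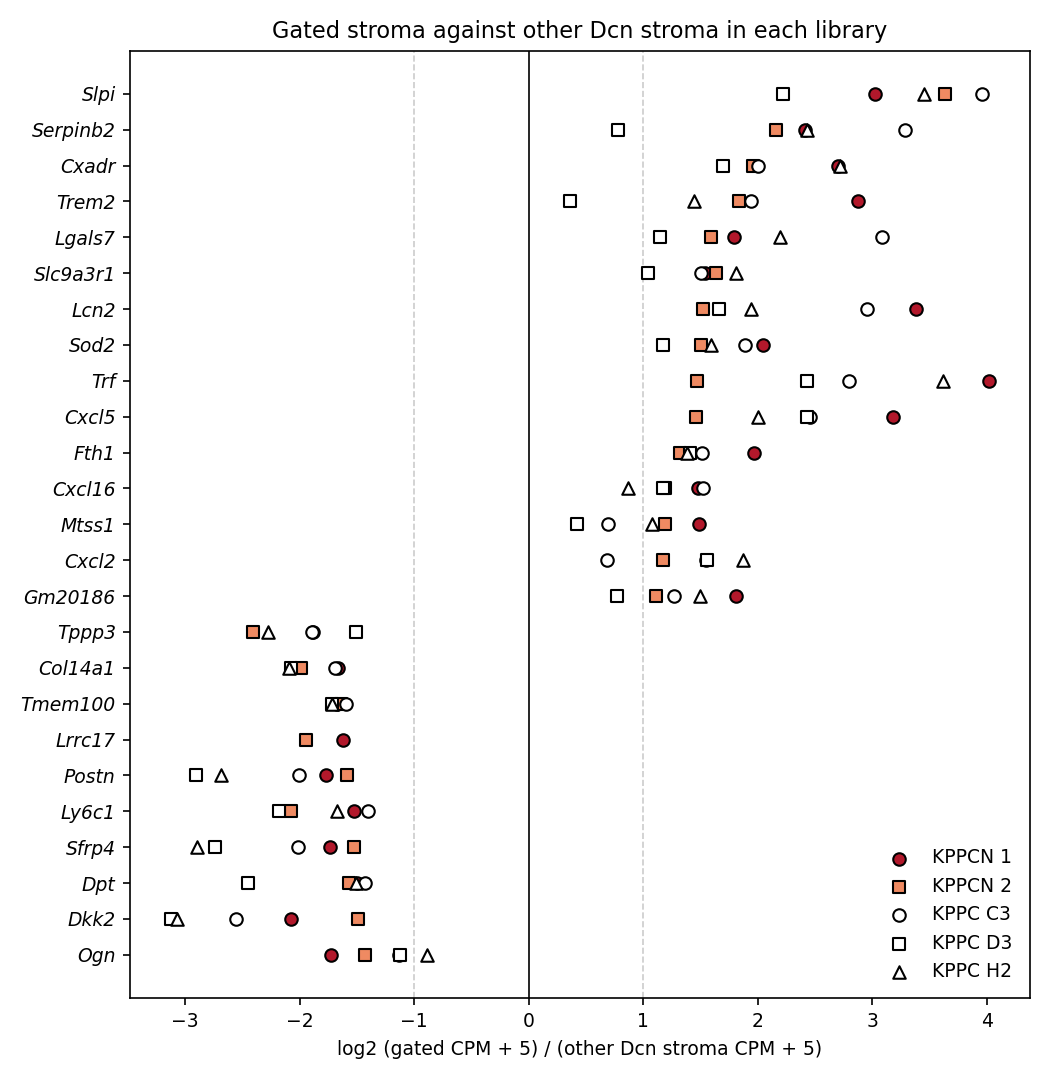
Log2 ratio of gated stroma over other Dcn stroma, with 5 CPM added to each level, for the 15 highest and 10 lowest genes chosen in the KPPCN libraries, with 1 point per library. Points of all libraries fall on the same side of 0 for every gene shown, and Lrrc17 has points for KPPCN only because it was at 0 throughout KPPC D3.

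The lowest genes by the same order included several that encode matrix proteins. Postn, the matricellular protein periostin, was at 124 and 169 CPM in gated cells of KPPCN 1 and 2, against 435 and 516 CPM in other Dcn stroma, and at 142, 29.4 and 70.8 CPM in KPPC libraries C3, D3 and H2, against 585, 253 and 484 CPM (-2.47 ± 0.16). Col14a1, a fibril-associated collagen, was at 206 and 91.6 CPM in gated cells of KPPCN 1 and 2, against 662 and 378 CPM, with -1.88 ± 0.10 in KPPC. The secreted Wnt antagonists Dkk2 and Sfrp4 differed by -2.89 ± 0.12 and -2.50 ± 0.16 in KPPC, and Dkk2 was at 8.37 and 16.5 CPM in gated cells of KPPCN 1 and 2, against 51.4 and 55.7 CPM. Dpt (dermatopontin), Ogn (osteoglycin), Tppp3, Tmem100 and Ly6c1 were lower as well, with KPPC differences from -1.77 to -0.97.

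Whole lists were counted in the KPPC test, with 14.3% higher and 15.9% lower as the share over all genes. Of 19 measured myofibroblast genes 0 were higher and 17 lower (median log2 difference -1.74), and of 29 genes of fibrillar collagens and their crosslinking 0 were higher and 25 lower (median -0.86), beside a median of -0.01 over all genes. In KPPCN, the myofibroblast median was -1.86 in KPPCN 1 and 0.00 in KPPCN 2, and the fibrillar collagen median -0.81 and -0.05. The low median of these lists was therefore present in KPPCN 1 and not in KPPCN 2, a difference that was not tested. Acta2, smooth muscle actin, was at 140 and 704 CPM in gated cells of KPPCN 1 and 2, against 786 and 595 CPM in other Dcn stroma. Col1a1 was at 4827 and 11402.5 CPM in gated cells, against 8006 and 10230.0 CPM.

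The inflammatory fibroblast list gave 4 higher and 11 lower of 23 genes in KPPC (median -0.30). Pi16 (-3.02 ± 0.13), Clec3b (-1.73 ± 0.23) and Ly6a (-1.46 ± 0.13) were among the lower ones. Over its 21 genes at 50 CPM or more, the list median was -0.55 in KPPCN 1 and -0.30 in KPPCN 2. Of these genes 0 were 2-fold higher and 6 were 2-fold lower in both KPPCN libraries. C3, complement component 3, was at 9261 and 3026 CPM in gated cells of KPPCN 1 and 2, against 4344 and 2732 CPM, and was higher in KPPC (0.57 ± 0.12, adjusted p = 0.0164 by limma). Il6 was at 57.2 and 141 CPM in gated cells of KPPCN 1 and 2, against 86.0 and 137 CPM, and was not called in KPPC (-0.07 ± 0.15, adjusted p = 0.764 by limma). In KPPC, 15 of 28 NF-kB target genes were higher and 1 lower. Among 14 acute-phase genes the counts were 6 and 3, and among 8 CXC chemokines other than Cxcl13 4 and 1. The lower acute-phase genes were Lbp (-1.74), A2m (-0.88) and Ptx3 (-0.81). Over 18 genes at 50 CPM or more, the NF-kB median was 0.651 in KPPCN 1 and 0.098 in KPPCN 2. Over 10 such genes, the acute-phase median was 1.008 in KPPCN 1 and 0.377 in KPPCN 2. Both medians were thus smaller in KPPCN 2, which was not tested. Haptoglobin, Hp, was at 1620 and 1120 CPM in gated cells of KPPCN 1 and 2, against 567 and 826 CPM. With total scaling the NF-kB counts in KPPC were 10 and 3.

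Genes of visceral mesenchyme were called in both directions. Of 21 measured genes of visceral mesenchyme and retinoid handling, 6 were higher and 8 lower in KPPC (4 and 8 with total scaling), with Wt1 (0.80 ± 0.11), Gata6 (0.94 ± 0.10), Osr1 (1.52 ± 0.14) and Bnc1 (0.97 ± 0.12) among the higher ones. The transcription factors Nkx2-3 (-1.35 ± 0.16), Tcf4 (-1.07 ± 0.13), Nr2f1 (-0.71 ± 0.14), Nr2f2 (-0.65 ± 0.09) and Bnc2 (-0.30 ± 0.08) of the same list were lower, and Gata4 was not called (0.02 ± 0.07, adjusted p = 0.828 by limma). Gata6 was at 102 and 141 CPM in gated cells of KPPCN 1 and 2, against 56.1 and 74.7 CPM, and Osr1 at 183 and 65.1 CPM, against 77.0 and 49.8 CPM. Of the remaining markers Chl1 was higher in KPPC (0.75 ± 0.11, adjusted p = 0.00522 by limma), and Col6a5 was not called (1.02 ± 0.33, adjusted p = 0.0592). Mesothelial genes outside the gate moved in part, with 5 of 14 higher and 4 lower. Gpm6a (1.20 ± 0.11), Rspo1 (0.62 ± 0.10) and Bnc1 were among the higher ones, and Igfbp5, Igfbp6 and Efemp1 among the lower ones. Msln was not called (-0.09 ± 0.17, adjusted p = 0.717 by limma). For the 4 mesothelial genes that the gate limits, the KPPC log2 differences were 1.93 (Nkain4), 1.15 (Upk3b), 0.96 (Lrrn4) and 0.27 (Upk1b). The gate caps their sum in gated and other cells alike, so these values describe what it let through and carry no test.

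Of 10 measured genes of lysophosphatidic acid synthesis and reception, leaving out Enpp2, 1 was higher and 5 lower in KPPC. The receptor gene Lpar1 was at 13.0 and 25.9 CPM in gated cells of KPPCN 1 and 2, against 59.1 and 69.4 CPM in other Dcn stroma, and was lower in KPPC (-1.50 ± 0.20). Plpp3, a phosphatase that degrades lysophosphatidic acid, was at 170 and 161 CPM in gated cells, against 267 and 275 CPM (-0.96 ± 0.08 in KPPC). Both were lower in gated cells of all 5 libraries. Genes of lymphoid stroma, to which Cxcl13 belongs, gave 3 higher and 2 lower of 12 other genes. Ccl21a, a chemokine of lymphoid stroma, was at 0.465 and 6.62 CPM in gated cells of KPPCN 1 and 2, against 1.67 and 256 CPM. The gated value of KPPCN 1 lay under the level of 3 UMIs there (1.40 CPM), so its difference in that library cannot be read.

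TGF-beta signalling, which the study names in its title, was represented by 24 ligands, receptors and carriers, of which 1 was higher and 15 lower in gated cells of KPPC (median -0.48). Tgfb1 was at 73.5 and 147 CPM in gated cells of KPPCN 1 and 2, against 199 and 172 CPM in other Dcn stroma, and Tgfbr2, the type II receptor, at 85.6 and 258 CPM, against 213 and 351 CPM. Both were lower in gated cells in each library (-1.26 ± 0.12 and -1.16 ± 0.07 in KPPC). Of 22 SMAD response genes 3 were higher and 11 lower. In KPPCN the median of the TGF-beta list was -0.998 in KPPCN 1 and -0.06 in KPPCN 2, over its 15 genes at 50 CPM or more, and that of the SMAD list -0.29 and -0.03. The summed TGF-beta list was at 1324 and 2886 CPM in gated cells of KPPCN 1 and 2, against 2363 and 2814 CPM in other Dcn stroma, so that a lower level was present in KPPCN 1 and not in KPPCN 2. Cholesterol synthesis and uptake genes gave 13 higher and 0 lower of 24, with a median of 0.33, and Sqle, a sterol synthesis enzyme, was at 27.4 and 22.1 CPM in gated cells of KPPCN 1 and 2, against 8.70 and 8.03 CPM.

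MHC class II genes were higher in gated cells than in other Dcn stroma in 4 of the 5 libraries, but not higher than in mesothelial cells. The list summed to 737 and 576 CPM in gated cells of KPPCN 1 and 2, against 1211 and 1077 CPM in mesothelial cells, and to 696, 615 and 713 CPM in gated cells of KPPC libraries C3, D3 and H2, against 2265, 1890 and 2389 CPM. Cd74, the invariant chain, was at 392 and 328 CPM in gated cells of KPPCN 1 and 2, against 509 and 12.2 CPM in other Dcn stroma, and at 380, 331 and 418 CPM in KPPC libraries C3, D3 and H2, against 36.6, 45.7 and 46.6 CPM (3.08 ± 0.10, adjusted p = 0.000102 by limma). H2-Eb1, a class II beta chain, was at 85.1 and 70.0 CPM in gated cells of KPPCN 1 and 2, against 110 and 2.44 CPM. Cd74 in gated cells lay between 328 and 418 CPM in all 5 libraries, and in KPPCN 1 the other stroma was higher than in any other library. All 6 measured class II genes were higher in KPPC (median 2.23), also when cells with a UMI of the leukocyte genes Laptm5 or Coro1a were left out (Cd74 3.21 ± 0.14). That filter could act on C3 and, through Coro1a, on D3; both genes were at 0 throughout H2, where it removed no cell, and Tyrobp was not in the KPPC table.

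Leukocyte transcripts moved with this exception. In KPPCN 1 the 14 leukocyte genes summed to 425 CPM in gated cells and 602 CPM in other Dcn stroma, and the 10 genes of B and plasma cells to 1888 and 2621 CPM. In KPPCN 2 the leukocyte genes summed to 95.4 and 81.2 CPM and the B and plasma cell genes to 1.65 and 1.43 CPM in gated and other stroma, with 7 of the 10 at 0. Ptprc was 0 in both by the gate. The part of these transcripts in the class II values of KPPCN 1 was not tested.

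**Figure D4:**
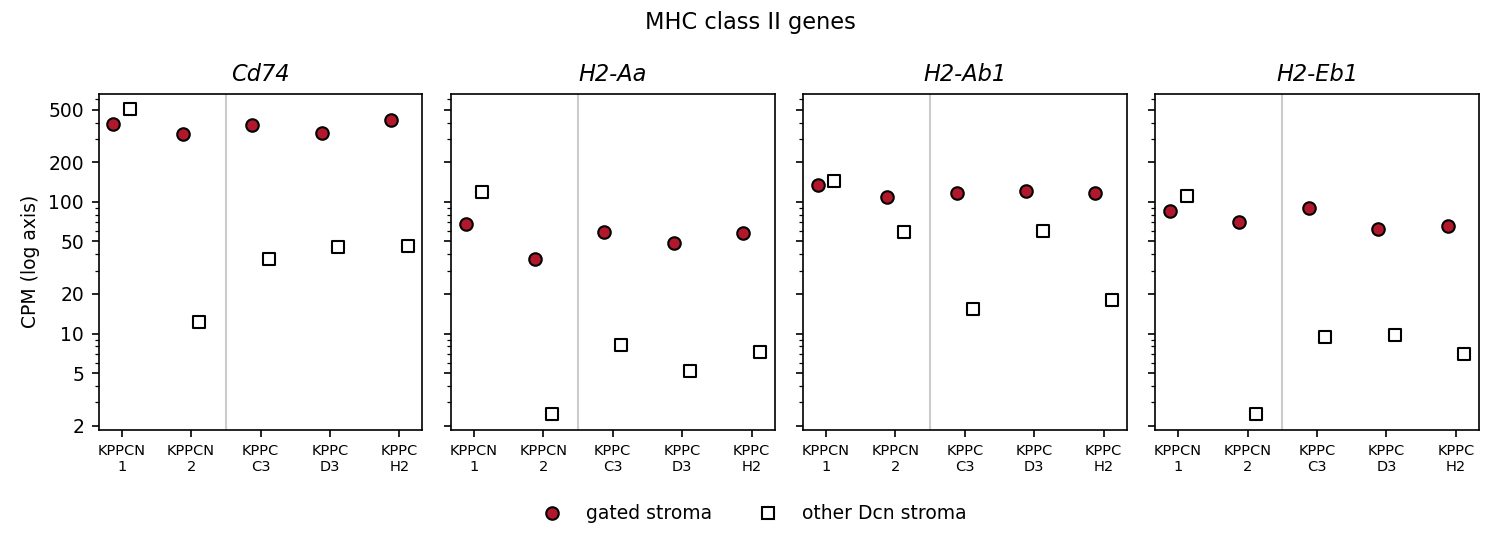
Level (CPM, log axis) of Cd74, H2-Aa, H2-Ab1 and H2-Eb1 in gated stroma and other Dcn stroma of each library, with 1 point for the summed UMIs of a set. Gated stroma lies above other stroma in KPPCN 2 and the 3 KPPC libraries, and below it in KPPCN 1, where Cd74 is at 392 CPM in gated and 509 CPM in other stroma.

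By the rule, gated cells made up a smaller share of both KPPCN libraries than of any KPPC library, but this did not hold under every setting. They were 6.94% of cells with 500 genes or more in KPPCN 1 (95% Clopper-Pearson interval 6.27 to 7.65%) and 3.87% in KPPCN 2 (3.07 to 4.80%). In KPPC the gate, with no condition on Ptprc, took 8.47% of C3 (7.60 to 9.41%), 19.8% of D3 (18.5 to 21.2%) and 12.3% of H2 (11.0 to 13.6%). The intervals cover counting error only, and the gate chose the cells, so no test was made. With the Ptprc condition dropped in KPPCN too, the shares there were 8.44% and 3.87%, and KPPCN 1 was next to C3. With a gate of 10 per 10000 they were 10.8% and 5.6% in KPPCN 1 and 2, against 10.2%, 22.3% and 13.8% in C3, D3 and H2. With at least 1000 genes per cell they were 9.93% and 4.09%, against 8.92%, 20.2% and 13.0%, so that the groups overlapped under both settings. As a share of Dcn stroma the values were 19.0% and 17.8% in KPPCN 1 and 2, against 16.1%, 50.9% and 29.3% in KPPC libraries C3, D3 and H2, and the groups overlapped. Without cells that held a leukocyte gene UMI the shares of all cells were 15.2% and 3.95% in KPPCN 1 and 2, against 8.66%, 20.2% and 12.3%, and overlapped too. This filter used Ptprc, Laptm5, Coro1a and Tyrobp in KPPCN, where it left 1676 of 5378 cells of KPPCN 1, but Laptm5 and Coro1a alone in C3, Coro1a alone in D3 and none of them in H2, where it left all 2515 cells. Epithelial cells, which differ between the genotypes as given above, are part of the first denominator. By Enpp2 alone at 20 per 10000, the shares were 2.44% and 0.297% in KPPCN 1 and 2, against 0.424%, 0.305% and 1.03% in KPPC.

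Gated cells of the KPPCN tumours were then compared with gated cells of the KPPC tumours. Besides genotype, the groups differed in the share of Epcam cells, in Xist outside H2 and in the genes their tables held (31053 and 12579). A difference between the groups thus cannot be told apart from these and assigned to loss of Nsdhl. Among 10937 genes, limma called 0 higher and 1 lower (0.00914%) in KPPCN at an adjusted p of 0.05, and 1311 (12%) had an unadjusted p under 0.05. KPPCN values lay above all KPPC values for 1678 genes (15.3%) and below all of them for 1813 (16.6%). The 5 libraries stand for 5 tumours as far as the labels say. Levels in this comparison are CPM on totals scaled by trimmed means.

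The gene called was Igfbp2, which encodes a secreted protein that binds insulin-like growth factors. It was at 0.911 and 1.14 CPM in gated cells of KPPCN 1 and 2 (2 UMIs in each), against 25.4, 26.9 and 36.3 CPM in KPPC libraries C3, D3 and H2 (-2.50 ± 0.20 SE, adjusted p = 0.0288 by limma). The ratio of the summed UMIs was 0.0352 (95% counting interval 0.00957 to 0.0905). Igfbp2 was also low in the other Dcn stroma of KPPCN, by -2.58 with an adjusted p of 0.256, and the difference between gated and other stroma was 0.09 (adjusted p = 0.979 by limma). Epcam cells held it at 0 CPM in KPPCN and 1.09 to 2.21 CPM in KPPC. Igfbp2 was no longer called with a pseudocount of 1 CPM, a gate of 10, genes at 0 in a KPPC library kept, or without KPPCN 1 or any one KPPC library. In GRCm38 it lies on chromosome 1 (72824503 to 72852474, plus strand).

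Other genes with large differences did not pass the adjusted test (adjusted p 0.212 to 0.348). Of the 12 on the higher side, Adamts4, an aggrecan-cleaving protease, was at 110 and 96.0 CPM in gated cells of KPPCN 1 and 2, against 41.1, 34.4 and 37.3 CPM in KPPC (1.35 ± 0.17). Wdfy1, Mirg, Lsp1 and Arsi had differences of 1.48, 1.41, 1.39 and 1.23, and H2-Q6, Ehbp1l1, Ahdc1, Usp50, Samd9l, Ikbkb and Dst lay between 0.85 and 1.07. Samd9l, an interferon-induced gene, was at 42.8 and 42.0 CPM in KPPCN, against 21.2, 17.5 and 22.9 CPM. The 2 groups did not overlap for any of these 12 genes, which was a condition of their choice.

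On the lower side Csf3, the granulocyte growth factor G-CSF, was at 52.8 and 41.5 CPM in gated cells of KPPCN 1 and 2, against 134, 239 and 220 CPM in KPPC libraries C3, D3 and H2 (-1.92 ± 0.30, adjusted p = 0.212 by limma). Fabp3, a fatty acid binding protein, was at 2.73 and 3.98 CPM, against 17.0, 27.5 and 30.2 CPM (-1.83 ± 0.28). In other Dcn stroma these genes differed by -0.39 and -0.35, and the difference between the stromal sets was -1.46 and -1.45 (adjusted p 0.699 and 0.675 by limma). Srxn1, which repairs oxidised peroxiredoxins, was at 27.8 and 25.6 CPM in gated cells of KPPCN, against 55.8, 71.6 and 74.0 CPM. Mgst1, Gsta4, Oard1 and Fam213a were also among the 12, with -1.67 to -1.08.

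Ctse, Dmbt1, Tff2 and Reg3b completed the lower side, and these are genes of the Epcam cells. Gsta4 and Fam213a, named above, were also higher in Epcam cells than in gated cells of each library. Before scaling, Gsta4 was at 604 to 956 CPM in Epcam cells over the 5 libraries, against 4.96 to 25.8 CPM in gated cells. Fam213a was at 89.3 to 216 CPM in Epcam cells, against 4.96 to 51.8 CPM in gated cells. Tff2, a mucosal trefoil peptide, was at 5.01 and 5.68 CPM in gated cells of KPPCN 1 and 2, against 63.1, 39.8 and 30.6 CPM in KPPC. In Epcam cells it was at 1817 and 2841 CPM in KPPCN, against 4200, 2358 and 2307 CPM. Other Dcn stroma differed by about as much (-2.60). Over the epithelial list, 12 of 13 measured genes lay below all KPPC values in gated cells, with a median of -1.16, and 0 of 13 were called. Over all genes 16.6% lay below all KPPC values. Epcam cells were 2.23 to 2.58% of the KPPCN and 18.1 to 32.1% of the KPPC libraries, and the part of their RNA in the values of gated cells was not tested.

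**Figure D5:**
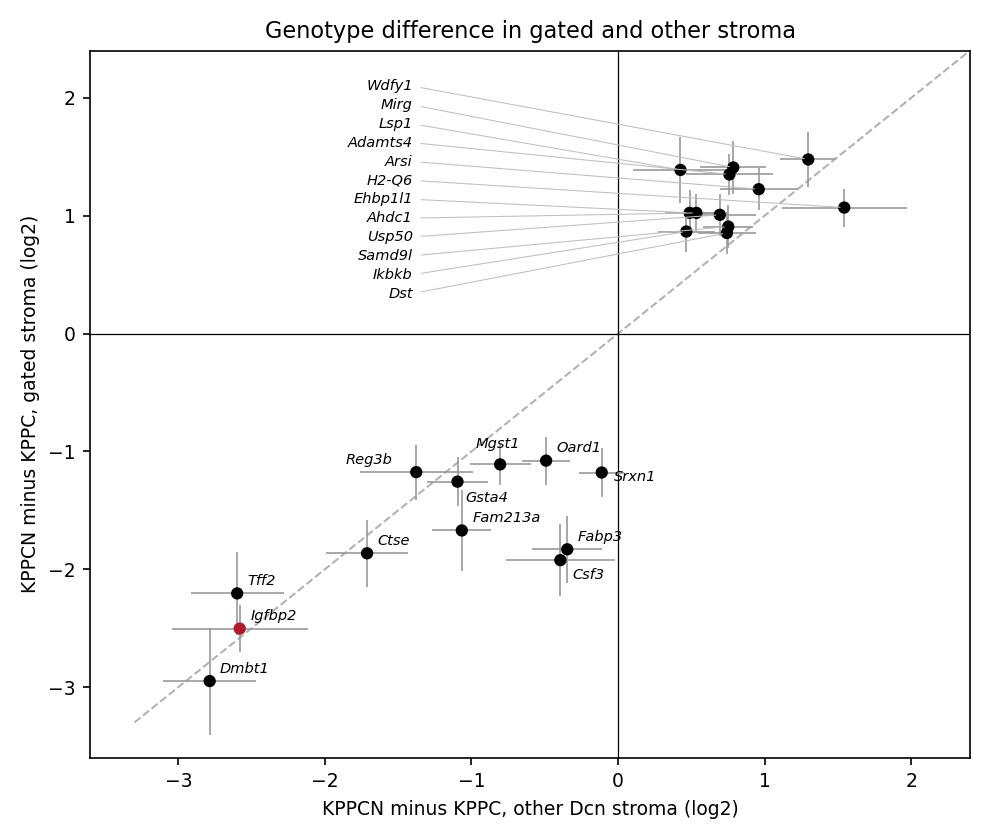
Log2 difference of KPPCN minus KPPC in gated stroma (vertical axis) against the same in other Dcn stroma (horizontal axis) for the 24 named genes, with bars of 1 standard error and a dashed line of equal difference. Igfbp2, in red and the only gene called, lies on the line at -2.50 and -2.58, and Csf3 and Fabp3 lie below it.

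No member of any list passed the genotype test, and the list medians are given as description beside 0.00 over all 10937 genes. Of all these genes, 15.3% lay above all KPPC values and 16.6% below all of them. Cell cycle genes lay lowest after the epithelial list: 0 of 20 were above 0, 14 lay below all KPPC values, and the median was -0.98, against 0.03 in other Dcn stroma. Before scaling the list summed to 584 and 338 CPM in gated cells of KPPCN 1 and 2, against 652, 1035 and 1172 CPM in KPPC libraries C3, D3 and H2. Ccnb1, a mitotic cyclin, was at 11.4 and 6.25 CPM in KPPCN, against 17.2, 38.3 and 48.8 CPM. The median was -1.37 without KPPCN 1 and -0.57 without KPPCN 2.

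Fibrillar collagen and crosslinking genes were above 0 for 27 of 29, with a median of 0.59, and 7 lay above all KPPC values. Over all 10937 genes, 5472 were above 0 and 15.3% lay above all KPPC values, a share that applies to every list here. Col1a1 was at 4728 and 11748 CPM in gated cells of KPPCN 1 and 2, against 4104, 2830 and 4624 CPM in KPPC (0.98 ± 0.41, adjusted p = 0.407 by limma). The median was 0.08 without KPPCN 2 and 1.14 without KPPCN 1, so that KPPCN 2 carried it. TGF-beta ligands and receptors had a median of 0.14, which was -0.12 without KPPCN 2. Interferon-stimulated genes were above 0 for 22 of 29 with a median of 0.38, and the median was 0.43 in other Dcn stroma. Irf7, a transcription factor of the interferon response, was at 132 and 160 CPM in gated cells of KPPCN 1 and 2, against 89.1, 65.1 and 76.7 CPM in KPPC (0.88 ± 0.20, adjusted p = 0.358 by limma). MHC class I genes were above 0 for 14 of 19, with 9 above all KPPC values and H2-K1 at 954 and 852 CPM, against 630, 559 and 543 CPM. Cholesterol synthesis and uptake genes, the pathway of Nsdhl, were above 0 for 7 of 24 with a median of -0.12.

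The change between gated and other Dcn stroma was also compared between the genotypes, over 10932 genes. Limma called 0 genes higher and 0 lower, and 771 (7.05%) had an unadjusted p under 0.05. Other Dcn stroma alone gave 0 and 0 calls among 11235 genes, with 925 (8.23%) under 0.05. No gene was thus shown to differ by genotype in gated cells more than in other stroma.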

How the data were processed

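Droplet single-cell RNA libraries of 2 KPPCN and 3 KPPC tumours were used. Each deposited value is a natural log, ln(1 + UMIs per 10000 of the cell), as read from the values. Seurat 3.0.2, R 3.5.1, Cell Ranger 2.1.0 and GRCm38 appear in the submitters' processing notes, and no source used here gives the filters. Whole UMIs were recovered for 100% of values within 0.01 UMI. The KPPC and KPPCN tables held 12579 and 31053 genes; 1166 shared genes were at 0 in every cell of a KPPC library and were left out as not measured, which left 11413. Cells of 500 genes or more were used; no doublet caller was run, and leaving out the 5% of cells with most UMIs was an alternative. UMIs were summed per library and set and tested with limma 3.58.1 (R 4.3.3) on log2(CPM + 5), with trimmed-mean scaling (30% of ratios, 5% of levels), precision weights, a trend on mean level and Benjamini-Hochberg adjustment at 0.05 over all genes with 10 UMIs at the median total and 15 in all. Such differences understate changes of low genes. The steps were tested on simulated data. The gated cells and gene lists were chosen with earlier results of these data known, and the test within KPPC was added after the data were seen. Genes named for the genotype were those called plus the genes with the smallest unadjusted p whose groups do not overlap, to 12 in each direction at 20 CPM or more, without gate, marker, mitochondrial, ribosomal and predicted genes. Within KPPCN they were the 15 highest and 10 lowest of genes at 50 CPM. Other list members named within stroma were chosen after their values were seen. Levels of single libraries carry counting error. Replicates are separate mice as far as the labels say; the KPPC libraries are known by the cell codes C3, D3 and H2 alone, which were taken as 3 replicate libraries.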

Additional observations from a re-analysis of the deposited data

How the results depend on the processing

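No paired analysis was possible because the KPPC columns are coded C3, D3 and H2, and none of these is a KPPC sample number, so tumours of the 2 genotypes could not be paired; gated and other stroma of a library were paired by library within KPPC and in the difference between stromal sets. In the genotype comparison of gated cells the 1 call became 0 with a pseudocount of 1 CPM, with a gate of 10 per 10000, with cells thinned to 1000 UMIs (which also moved the median of all genes to -0.18) and with genes at 0 in a KPPC library kept; it was 0 to 27 when 1 library was left out. The 27 arose without KPPCN 2 (23 higher, 4 lower), where 4 list members were also called (0 to 4 over the libraries left out). Without KPPCN 1 the call was Arg1, higher in KPPCN. The log2 difference of Igfbp2 ran from -3.90 to -2.06 (adjusted p 0.006 to 0.195 by limma). None of the 24 named genes reversed under any setting, and Adamts4 was called without KPPCN 2 (1.45, adjusted p = 0.0466 by limma). Other Dcn stroma gave 6 calls, all lower, with thinned cells and 0 to 12 with a library left out (12 without KPPCN 2, 1 without C3), and the difference between stromal sets gave 0 to 2 (2 lower without KPPCN 2). Within KPPC, 3394 calls became 896 with thinned cells, where 6422 genes were tested, and 2116 (without C3) to 2471 with a library left out. Within KPPCN, 60 genes past 2-fold became 39 with a gate of 10 (20 higher, 19 lower). The mean share of gated cells differed between genotypes by -8.12 points, by -10.6 to -4.98 with a library left out, by -1.96 for a gate on Cxcl13 alone and by 0.779 for a gate on Enpp2 alone, where KPPCN 1 was high. The causes were not tested. Depth limits KPPCN 1, with a median of 4209 UMIs per gated cell, and KPPCN 2, with 78 gated cells.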
